A study of Mus musculus with 21 samples.

Results

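The genes described here are the secreted ligands, receptors and secreted inhibitors of the Wnt pathway in mouse osteoblast cultures. They comprise 19 Wnt ligands, 10 Frizzled receptors (Fzd1 to Fzd10), the 2 co-receptors Lrp5 and Lrp6, and 10 secreted inhibitors (Sfrp1, Sfrp2, Sfrp4, Sfrp5, Frzb, Dkk1, Dkk2, Dkk3, Wif1 and Sostdc1). They were chosen by gene symbol, with earlier results of these data known. All 41 listed genes were found among the 22180 genes measured.

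Osteoblasts, the bone-forming cells, were prepared from the skull vault (calvaria) of C57BL/6J mice 7 to 10 days old, with a separate preparation for each biological replicate. At passage 2 they were differentiated from day 3 with β-glycerophosphate and ascorbic acid, and from day 10 they were kept for 24 h without serum. A 4 h treatment followed, in serum-free medium with albumin, with vehicle or with 1 of 6 peptides cut from parathyroid hormone (PTH). RNA (100 ng) from each culture was hybridised to a whole-transcript mouse array, 3 arrays in each of the 7 groups and 21 in all. The peptides that start at the hormone's first residue, namely hPTH(1-34), hPTH(1-31) and PTH(1-36), each at 100 nM, are the intact analogs below. The truncated analogs start later: bPTH(3-34) and hPTH(7-34) were given at 100 nM, and bPTH(7-34), the bovine peptide amide (D-Trp12,Tyr34)-PTH(7-34), at 1000 nM. In these names h stands for human and b for bovine, and PTH(1-36) carries neither letter. All groups come from primary cultures that hold more than 1 cell type, at a single dose and time per analog.

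Wnt proteins are lipid-modified ligands that bind a Frizzled receptor, and with Lrp5 or Lrp6 as co-receptor they stabilise β-catenin, which then acts with TCF and LEF factors on target genes. Secreted Frizzled-related proteins (Sfrp genes and Frzb) and Wif1 bind Wnt ligands, whereas Dkk1, Dkk2 and Sostdc1 bind the Lrp co-receptors. In bone this pathway favours osteoblast formation, and loss of Lrp5 lowers bone mass. PTH acts on osteoblasts through Pth1r, a receptor coupled to cyclic AMP, and peptides without the first residues activate it poorly.

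Values are log2 signals of 1 transcript cluster (a set of probes for a gene) on each array, so levels of different genes are not compared. Differences are log2 analog minus vehicle, with the standard error (SE) of a linear model (limma) fitted to all genes and arrays. A gene was called where its p, adjusted over all genes by Benjamini-Hochberg, was under 0.05. Array medians over all clusters lay between 3.49 and 3.61, and arrays of a group correlated at 0.99 to 0.993 across genes. Vehicle cultures had the osteoblast signals of Col1a1 at 13.25 ± 0.04 and Alpl at 8.93 ± 0.16, with Bglap at 3.73 ± 0.20 and Dmp1 at 3.28 ± 0.43, below the median over genes of the mean signal (4.42). They also had macrophage signals, with Lyz2 at 12.22 ± 0.08 and Csf1r at 10.20 ± 0.06 (SD, n = 3). Of 10 cartilage markers 7 lay at or above that median, among them Sox9 at 9.58 ± 0.24 and Col2a1 at 8.05 ± 0.15. The other 3 lay below it.

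To show what lies upstream of receptors and a ligand whose levels changed, the 250 bases before the annotated start are given for Fzd5, which fell with the intact analogs, for Fzd1, which rose with them, and for Wnt11, which rose with hPTH(1-34) and hPTH(1-31). They come from the RefSeq promoter table (GRCm38.p6), which held 27 of the 41 genes in 30 regions. Each is printed 5′ to 3′ on the gene's own strand. The positions are chr1:64737751-64738000 for Fzd5 (minus strand), chr5:4758217-4758466 for Fzd1 (minus strand), and chr7:98834862-98835111 and chr7:98838595-98838844 for the 2 starts of Wnt11 (plus strand). Capitals mark matches on either strand to TGACG, the core of the cyclic AMP response element, and to CTTTGAT, a TCF/LEF motif.
Fzd5: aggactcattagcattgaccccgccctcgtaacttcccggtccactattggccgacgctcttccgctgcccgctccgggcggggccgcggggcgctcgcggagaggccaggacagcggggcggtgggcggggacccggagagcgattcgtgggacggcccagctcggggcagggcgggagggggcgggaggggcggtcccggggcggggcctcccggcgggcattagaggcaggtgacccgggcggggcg
Fzd1: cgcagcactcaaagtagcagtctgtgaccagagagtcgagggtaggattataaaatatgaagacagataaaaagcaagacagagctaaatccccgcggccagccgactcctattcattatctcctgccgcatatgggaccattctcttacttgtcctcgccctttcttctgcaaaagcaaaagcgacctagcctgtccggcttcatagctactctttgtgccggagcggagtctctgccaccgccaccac
Wnt11, first start: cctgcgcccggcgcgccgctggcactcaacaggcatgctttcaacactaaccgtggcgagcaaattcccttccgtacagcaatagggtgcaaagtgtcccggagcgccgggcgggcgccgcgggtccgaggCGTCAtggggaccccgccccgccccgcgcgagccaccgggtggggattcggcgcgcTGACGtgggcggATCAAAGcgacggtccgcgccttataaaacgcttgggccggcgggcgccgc
Wnt11, second start: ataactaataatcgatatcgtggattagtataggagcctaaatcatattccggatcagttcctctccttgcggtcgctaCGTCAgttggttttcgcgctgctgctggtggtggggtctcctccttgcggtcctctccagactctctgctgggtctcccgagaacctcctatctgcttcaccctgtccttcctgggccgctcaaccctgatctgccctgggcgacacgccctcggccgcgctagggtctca

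The full cyclic AMP response element TGACGTCA, which contains that core, was in 0 of the 30 regions and in 1.55% of all 32851 regions of the table. TGACG was in 4 of 30 regions (13.3%), against 17.8% of all regions, and these belonged to Wnt11, Wnt10b and Sfrp5. CTTTGAT was in 2 of 30 regions (6.67%), of Wnt5b and Wnt11, against 3.21% of all. In Wnt11, TGACG began 63 and 119 bases before the first start and 171 bases before the second, and CTTTGAT 51 bases before the first. The windows of Fzd5 and Fzd1 held neither motif. Nor did those of Wnt4, Dkk2 and Wif1, which were also called against vehicle and are not printed. Among the called genes with a window, Wnt11 alone held a match. These matches are a description of letters and were not tested for binding. Wnt5a, Wnt7b, Wnt8a, Wnt10a, Fzd2, Fzd3, Fzd6, Fzd8, Lrp5, Lrp6, Sfrp1, Sfrp4, Dkk3 and Sostdc1 were not among the 27.

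Each analog was compared with vehicle to ask which Wnt genes it changed. With hPTH(1-34), 12 of the 41 genes were called (29.3%), 8 higher and 4 lower, where 8.64% of all genes were called (3.9% higher and 4.74% lower). With hPTH(1-31) the count was 9 (22%), 6 higher and 3 lower, against 8.7% of all genes (4.38% higher and 4.32% lower). With PTH(1-36) it was 8 (19.5%), 4 higher and 4 lower, against 7.23% of all genes (3.68% higher and 3.54% lower), and with each array centred on its median the split was 5 higher and 3 lower. The 7 genes called with all 3 intact analogs were Fzd1, Fzd2, Fzd5, Fzd6, Fzd8, Lrp6 and Sfrp4. The median difference over the 41 genes was 0.08, -0.01 and 0.02 with the intact analogs in that order, beside -0.01, -0.02 and -0.02 over all genes. The comparisons share the 3 vehicle arrays. In RNA from whole cultures, fewer cells of a type and less RNA per cell cannot be told apart.

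These counts depended on single arrays. The count with hPTH(1-34) was 7 without Vehicle replicate 1, 7 without Vehicle replicate 2 and 6 without hPTH(1-34) replicate 1. The count with PTH(1-36) was 5 without Vehicle replicate 2. In a model of vehicle and 1 analog alone, 5 genes were called with each intact analog (Fzd2, Fzd5, Fzd6, Fzd8 and Wnt4). The share of all genes called in these alternatives is not given here. Whether the lower counts are particular to the Wnt genes can therefore not be read from them. The calls of Fzd2, Fzd5, Fzd6 and Fzd8 with each intact analog were present in every alternative run, including the removal of each array of the contrast.

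**Figure D1:**
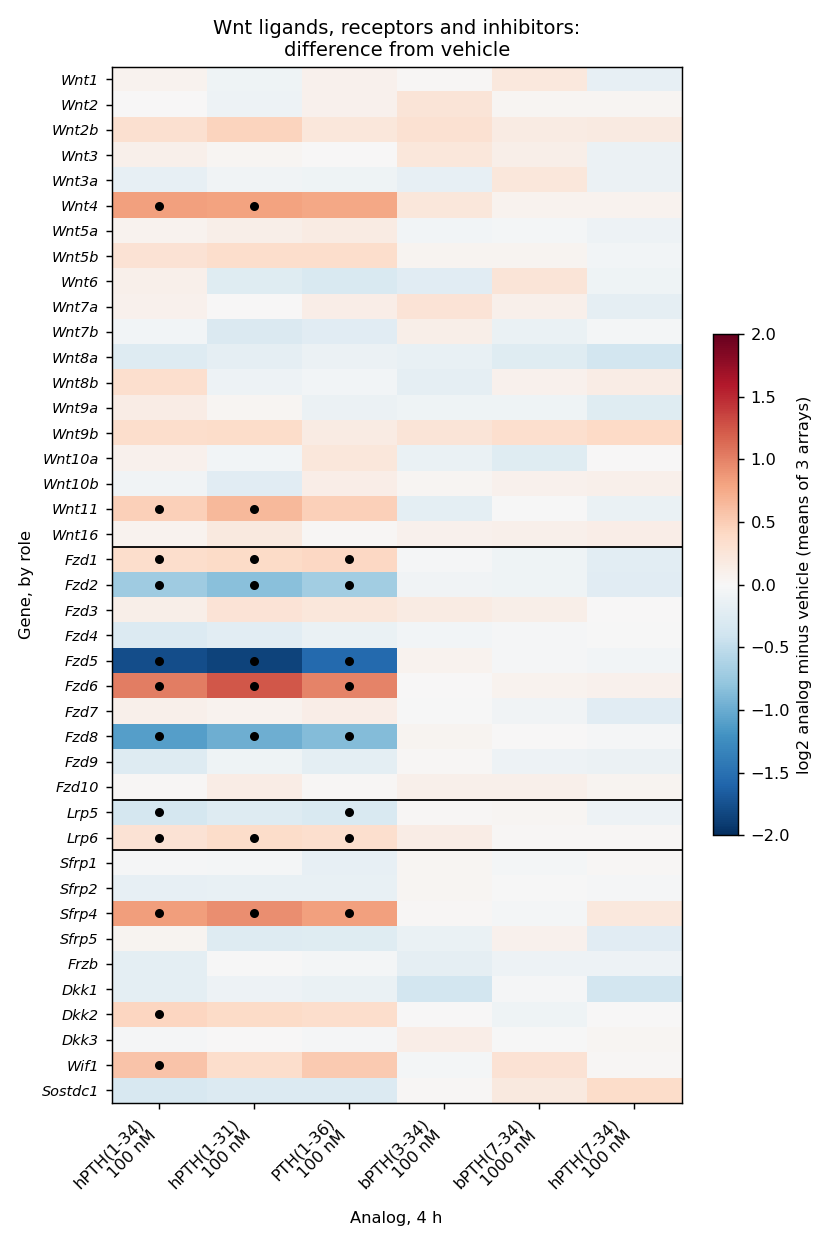
Difference from vehicle (log2, means of 3 arrays) of the 41 Wnt genes in rows, grouped into ligands, Frizzled receptors, co-receptors and secreted inhibitors, for the 6 analogs in columns. Dots mark an adjusted p under 0.05: 12, 9 and 8 genes with the intact analogs and none with the truncated analogs, with Fzd5 the darkest blue row.

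Among the Frizzled receptors, which bind Wnt ligands at the cell surface, 5 of 10 were called with each intact analog. This was 50%, beside 8.64%, 8.7% and 7.23% of all genes with hPTH(1-34), hPTH(1-31) and PTH(1-36). Fzd5, Fzd8 and Fzd2 fell, and Fzd6 and Fzd1 rose. Fzd5 had the widest difference of the 41 genes, 3.41-fold lower with hPTH(1-34), 3.61-fold lower with hPTH(1-31) and 2.93-fold lower with PTH(1-36).

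Fzd5 (transcript cluster 17223793) read 7.18, 7.11 and 7.30 with vehicle, 5.41, 5.56 and 5.31 with hPTH(1-34), 5.42, 5.36 and 5.25 with hPTH(1-31), and 5.64, 5.65 and 5.65 with PTH(1-36). It read 7.24, 7.26 and 7.31 with bPTH(3-34), 7.19, 7.16 and 7.19 with bPTH(7-34), and 7.16, 7.19 and 7.07 with hPTH(7-34). All 9 arrays with intact analogs lay below all 12 others, and the truncated analogs overlapped vehicle. Fzd5 is a receptor that can signal through β-catenin, and its upstream window is the first of those printed above. The difference was -1.77 (SE 0.08, adjusted p = 4.91e-11) with hPTH(1-34), -1.85 (adjusted p = 2.23e-11) with hPTH(1-31) and -1.55 (adjusted p = 2.83e-10) with PTH(1-36).

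Fzd8 (17348276) read 7.56, 7.66 and 7.54 with vehicle, 6.56, 6.49 and 6.41 with hPTH(1-34), 6.72, 6.57 and 6.54 with hPTH(1-31), and 6.72, 6.65 and 6.78 with PTH(1-36). The 9 arrays with truncated analogs ran from 7.46 to 7.79, with a median of 7.57. The groups with intact analogs were again below every other array. Fzd8 is a close relative of Fzd5 in the Frizzled family. It was 2.14-fold, 1.97-fold and 1.83-fold lower with hPTH(1-34), hPTH(1-31) and PTH(1-36) (log2 differences -1.10, -0.98 and -0.87, SE 0.09, adjusted p = 8.68e-08, 3.81e-07 and 2.01e-06).

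Fzd2 (17256975), a receptor expressed in many mesenchymal cells, read 7.61, 7.47 and 7.34 with vehicle, 6.78, 6.61 and 6.88 with hPTH(1-34), 6.85, 6.63 and 6.44 with hPTH(1-31), and 6.78, 6.82 and 6.72 with PTH(1-36). It ran from 7.15 to 7.45 with the truncated analogs (median 7.39), so the arrays with intact analogs stood below all others here too. The differences were -0.72, -0.83 and -0.70 (SE 0.11, adjusted p = 0.000139, 2.37e-05 and 0.000213). The interval for hPTH(7-34) against vehicle ran from -0.44 to 0.00, around a difference of -0.22 that was not called (adjusted p = 0.611).

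Fzd6 (17311179), a receptor best known from planar cell polarity, the alignment of cells within a sheet, moved the other way. It read 6.21, 6.25 and 6.28 with vehicle, 7.34, 7.20 and 7.28 with hPTH(1-34), 7.48, 7.36 and 7.64 with hPTH(1-31), and 7.10, 7.27 and 7.33 with PTH(1-36). The truncated analogs gave 6.13 to 6.45, with a median of 6.29. No array with an intact analog overlapped any other array. Fzd6 rose 2.04-fold, 2.37-fold and 1.98-fold (log2 differences 1.03, 1.25 and 0.99, SE 0.09, adjusted p = 4.81e-07, 3.49e-08 and 9.74e-07).

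Fzd1 (17445325) changed less but as regularly. It read 9.03, 9.11 and 9.02 with vehicle, 9.41, 9.41 and 9.38 with hPTH(1-34), 9.45, 9.45 and 9.43 with hPTH(1-31), and 9.50, 9.54 and 9.36 with PTH(1-36). Its range with the truncated analogs was 8.79 to 9.06, below every array with an intact analog. The rise was 1.27-fold, 1.31-fold and 1.33-fold (differences 0.35, 0.39 and 0.41, SE 0.08, adjusted p = 0.00581, 0.00211 and 0.00147). In that model of vehicle and 1 analog the calls of Fzd1 were lost, with adjusted p of 0.0859, 0.0669 and 0.102. With hPTH(7-34) the mean of Fzd1 lay below vehicle (8.85 ± 0.10 against 9.05 ± 0.05, SD, n = 3), a difference of -0.21 that was not called (adjusted p = 0.503).

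Over all genes, 2.91% had every array with an intact analog above every other array and 3.05% had them below, 5.96% in all. Of the 41 Wnt genes, 4 were above (Fzd1, Fzd6, Lrp6 and Dkk2) and 3 below (Fzd2, Fzd5 and Fzd8).

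The other 5 receptors were not called with any analog. Fzd4 had group means from 7.43 to 7.70, Fzd7 from 7.05 to 7.41, Fzd3 from 4.80 to 5.08 and Fzd9 from 4.63 to 4.90. Fzd10 stayed between 1.85 and 2.00, below the median gene. Their differences from vehicle lay between -0.27 and 0.28. The lowest of these, Fzd4 with hPTH(1-34), had an adjusted p of 0.176.

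**Figure D2:**
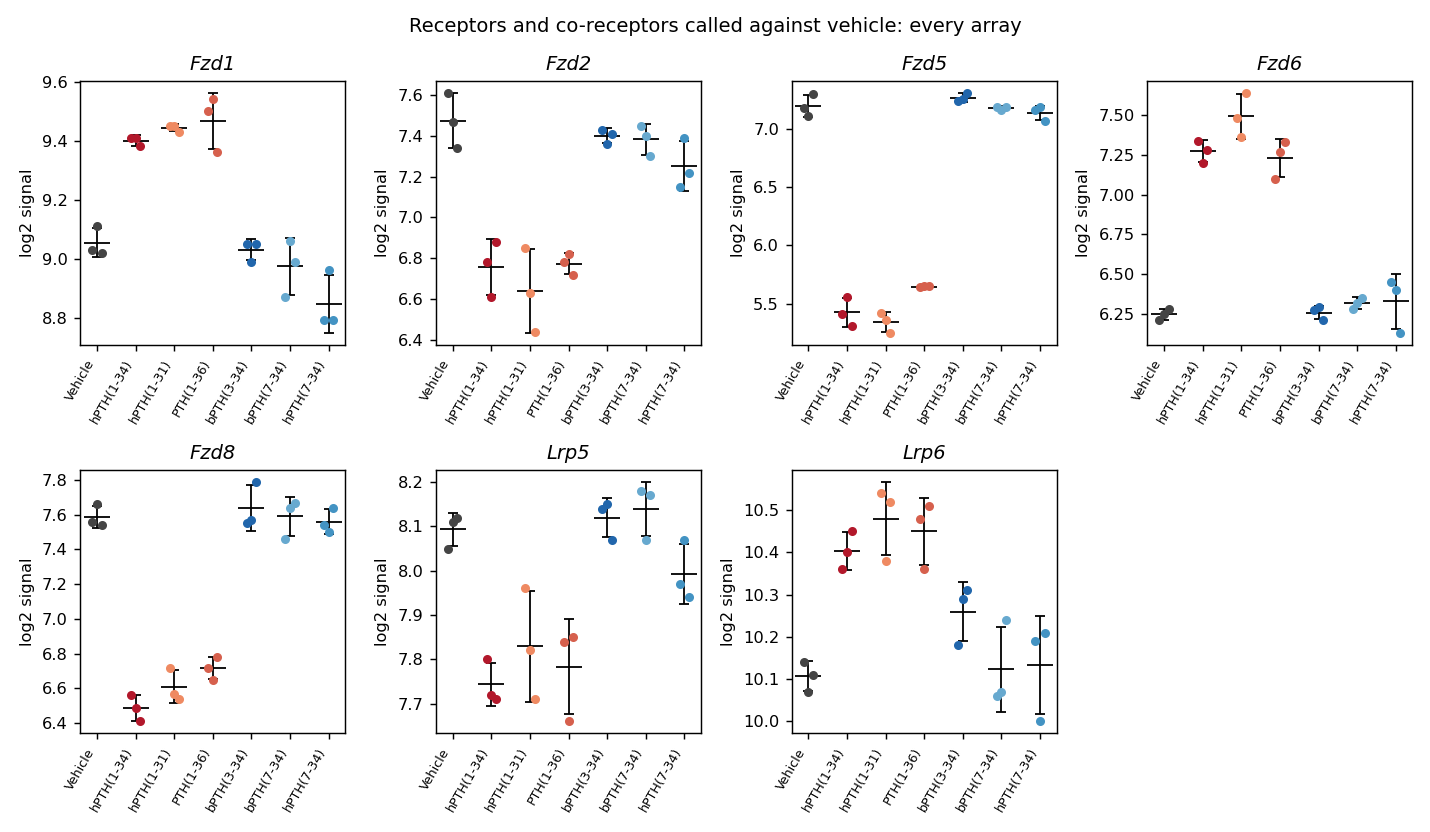
Log2 signal of the 7 receptors and co-receptors called against vehicle, on every array (points), with group mean (line) and SD (bars, n = 3). Each vertical axis has its own range. In Fzd2, Fzd5 and Fzd8 the 9 points of the intact analogs lie below the 12 others, and in Fzd1, Fzd6 and Lrp6 above them.

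The co-receptors, which pair with a Frizzled to start β-catenin signalling, moved in opposite directions and by little. Lrp6 (17471995) read 10.14, 10.07 and 10.11 with vehicle, 10.36, 10.40 and 10.45 with hPTH(1-34), 10.54, 10.38 and 10.52 with hPTH(1-31), and 10.48, 10.36 and 10.51 with PTH(1-36). The truncated analogs gave 10.00 to 10.31, with a median of 10.19. All arrays with intact analogs were above all others, by a narrow gap. The differences were 0.30, 0.37 and 0.34 (SE 0.08, adjusted p = 0.0301, 0.00618 and 0.0136). The call with hPTH(1-34) was lost on leaving out any 1 of its 6 arrays (adjusted p up to 0.104), and that with PTH(1-36) without Vehicle replicate 2 (0.0579) or PTH(1-36) replicate 3 (0.0594). With the mean of the gene's 2 clusters in place of the brighter, adjusted p was 0.156 with hPTH(1-34) and 0.0513 with hPTH(1-31). The dimmer cluster differed from vehicle by 0.22, 0.30 and 0.35.

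Lrp5 (17360977), whose loss or gain of function in people changes bone mass, read 8.05, 8.11 and 8.12 with vehicle, 7.80, 7.72 and 7.71 with hPTH(1-34), 7.96, 7.82 and 7.71 with hPTH(1-31), and 7.84, 7.66 and 7.85 with PTH(1-36). Its values with the truncated analogs ran from 7.94 to 8.18. Every array with an intact analog was below the vehicle arrays, but the highest of them, 7.96 with hPTH(1-31), overlapped the lowest of hPTH(7-34). Lrp5 was 1.27-fold lower with hPTH(1-34) (difference -0.35, SE 0.08, adjusted p = 0.00852) and 1.24-fold lower with PTH(1-36) (-0.31, adjusted p = 0.0225). With hPTH(1-31) the difference of -0.26 missed the threshold (adjusted p = 0.0504). The call with PTH(1-36) was lost without Vehicle replicate 2 (0.0747), Vehicle replicate 3 (0.0654) or PTH(1-36) replicate 2 (0.112).

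Of the 19 ligands, Wnt4 and Wnt11 were called with hPTH(1-34) and hPTH(1-31) and none with PTH(1-36). These were 10.5%, 10.5% and 0% of the ligands, beside 8.64%, 8.7% and 7.23% of all genes. The ligand share was thus near that of all genes with hPTH(1-34) and hPTH(1-31). Wnt4 and Wnt11 are both often described as acting without β-catenin. Wnt4 (17420154) read 4.55, 4.50 and 4.31 with vehicle, 5.35, 5.31 and 5.17 with hPTH(1-34), 4.94, 5.59 and 5.26 with hPTH(1-31), and 5.24, 5.47 and 4.99 with PTH(1-36). It read 4.78, 4.61 and 4.63 with bPTH(3-34), 4.97, 4.15 and 4.46 with bPTH(7-34), and 4.77, 3.82 and 4.97 with hPTH(7-34). All arrays with intact analogs were above vehicle, while single arrays with bPTH(7-34) and hPTH(7-34) reached into their range. The differences were 0.82, 0.81 and 0.78 (SE 0.24, adjusted p = 0.0427, 0.046 and 0.0626), or 1.77-fold, 1.75-fold and 1.72-fold by the means. The call with hPTH(1-34) was lost without any 1 of its 6 arrays (adjusted p 0.073 to 0.129). The call with hPTH(1-31) was lost without any vehicle array or without hPTH(1-31) replicate 2 or 3 (0.0825 to 0.196).

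Wnt11 (17480500) read 4.62, 4.56 and 4.99 with vehicle, 5.23, 5.30 and 5.07 with hPTH(1-34), 5.16, 5.59 and 5.36 with hPTH(1-31), and 5.26, 5.46 and 4.87 with PTH(1-36). With the truncated analogs it ran from 4.47 to 4.72. The third vehicle array was the highest of its group and overlapped the lowest array of PTH(1-36). The differences were 0.48, 0.65 and 0.47 (SE 0.14, adjusted p = 0.0431, 0.0056 and 0.0505), a rise of 1.39-fold with hPTH(1-34) and 1.57-fold with hPTH(1-31). The call with hPTH(1-34) was lost without Vehicle replicate 1 (0.148), Vehicle replicate 2 (0.176), hPTH(1-34) replicate 1 (0.117) or hPTH(1-34) replicate 2 (0.151). The call with hPTH(1-31) was kept on leaving out each of its arrays (adjusted p up to 0.041).

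The other 17 ligands were not called with any analog, and their differences from vehicle lay between -0.37 and 0.44. The 13 among them whose mean lay below the median gene, at which a change is hard to measure, were Wnt1, Wnt2, Wnt2b, Wnt3, Wnt3a, Wnt6, Wnt7a, Wnt7b, Wnt8a, Wnt8b, Wnt9b, Wnt10a and Wnt10b. Their group means lay between 1.87 (Wnt8b) and 4.53 (Wnt10a). Wnt5a, a ligand of Ror2 and of β-catenin-independent signalling, had group means from 5.61 to 5.87. Wnt9a ran from 4.98 to 5.38 and Wnt16, a ligand linked to cortical bone, from 5.09 to 5.28. Wnt5b had differences of 0.29, 0.35 and 0.35 with the intact analogs, which did not pass the adjustment (adjusted p = 0.222, 0.114 and 0.13). The 95% interval of a ligand reached a median of 0.34 to either side of its difference, so smaller changes could not be told from 0 with these arrays.

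Of the 10 secreted inhibitors, 3 were called with hPTH(1-34) (Sfrp4, Dkk2 and Wif1) and Sfrp4 alone with the other intact analogs. All of these calls were higher, 30%, 10% and 10% of the inhibitors with hPTH(1-34), hPTH(1-31) and PTH(1-36). Of all genes, 3.9%, 4.38% and 3.68% were called higher. Sfrp4 (17285546), which binds Wnt ligands and whose loss thins cortical bone, read 4.35, 3.83 and 3.79 with vehicle, 5.13, 4.79 and 4.58 with hPTH(1-34), 4.39, 5.18 and 5.18 with hPTH(1-31), and 4.88, 5.10 and 4.45 with PTH(1-36). Arrays with truncated analogs ran from 3.83 to 4.41, with a median of 4.06. The arrays with intact analogs were above vehicle, and the lowest, 4.39, overlapped the highest array of hPTH(7-34). Sfrp4 rose 1.79-fold, 1.90-fold and 1.77-fold (differences 0.84, 0.93 and 0.82, SE 0.22, adjusted p = 0.0178, 0.00926 and 0.0244). It was the single called gene whose mean lay below the median gene.

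The calls of Sfrp4 rested on few arrays. With hPTH(1-34) the call was lost without Vehicle replicate 2 (0.0781), Vehicle replicate 3 (0.0791) or hPTH(1-34) replicate 1 (0.0989). With hPTH(1-31) it was lost without replicate 2 (0.0553) or 3 (0.0566) of that group. With PTH(1-36) it was lost without Vehicle replicate 2 (0.105), Vehicle replicate 3 (0.0971), PTH(1-36) replicate 1 (0.0742) or PTH(1-36) replicate 2 (0.115).

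Dkk2 (17402698), which binds Lrp5 and Lrp6, read 6.59, 6.45 and 6.52 with vehicle, 6.96, 6.76 and 7.11 with hPTH(1-34), 7.00, 6.95 and 6.74 with hPTH(1-31), and 6.96, 6.92 and 6.72 with PTH(1-36). The truncated analogs gave 6.16 to 6.63. Every array with an intact analog was above every other array. The differences were 0.42, 0.38 and 0.35 (SE 0.12, adjusted p = 0.0371, 0.0681 and 0.105), and the first alone passed the threshold. That call was lost without any 1 vehicle array (adjusted p 0.061 to 0.125), hPTH(1-34) replicate 1 (0.1) or hPTH(1-34) replicate 3 (0.165).

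Wif1 (17237701), which binds Wnt ligands outside the cell, read 4.82, 4.67 and 5.11 with vehicle, 5.76, 5.32 and 5.24 with hPTH(1-34), 5.05, 5.32 and 5.28 with hPTH(1-31), and 5.54, 5.36 and 5.26 with PTH(1-36). The truncated analogs gave 4.60 to 5.39. Arrays of bPTH(7-34) overlapped all intact analogs, and the third vehicle array overlapped hPTH(1-31). The differences were 0.57, 0.35 and 0.52 (SE 0.17, adjusted p = 0.0438, 0.274 and 0.078). The call with hPTH(1-34) was lost without Vehicle replicate 1 (0.121), Vehicle replicate 2 (0.178), hPTH(1-34) replicate 1 (0.215) or hPTH(1-34) replicate 2 (0.0648).

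The remaining 7 inhibitors were not called against vehicle. Sfrp1 had group means from 11.64 to 11.84, Sfrp2 from 11.57 to 11.77, Dkk3 from 9.97 to 10.13 and Frzb from 5.35 to 5.54. Sfrp2 differed from vehicle by -0.16, -0.15 and -0.15 with hPTH(1-34), hPTH(1-31) and PTH(1-36). Its dimmer cluster differed by -0.37, -0.34 and -0.24. Sfrp5 (2.89 to 3.22) and Dkk1 (3.20 to 3.57) lay below the median gene. Sostdc1 had group means from 4.23 to 4.93. With the brightest cluster of each gene, differences of these 7 from vehicle lay between -0.36 and 0.37.

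**Figure D3:**
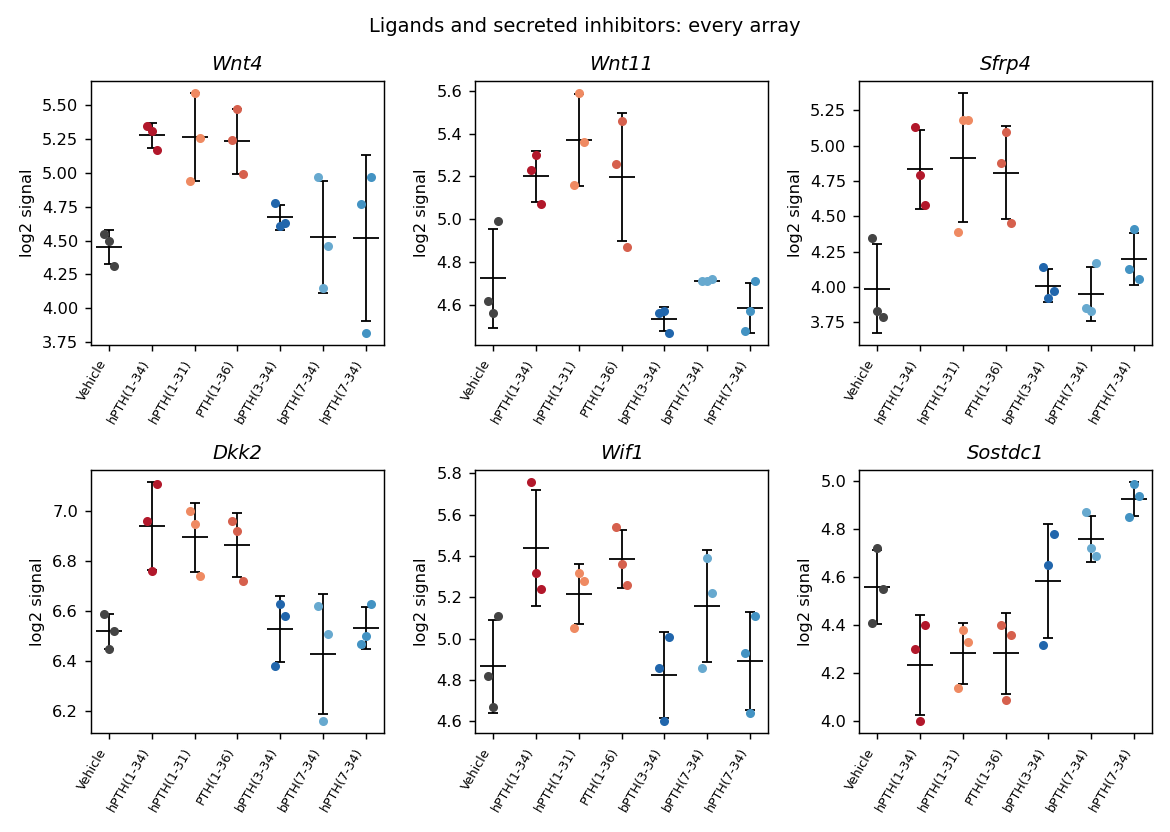
Log2 signal of Wnt4, Wnt11, Sfrp4, Dkk2, Wif1 and Sostdc1 on every array (points), with group mean (line) and SD (bars, n = 3). Each vertical axis has its own range. In Dkk2 all 9 points of the intact analogs lie above the 12 others, whereas in the other ligands and inhibitors some arrays overlap.

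No Wnt gene was called with a truncated analog against vehicle, by the same limma test. For bPTH(3-34) at 100 nM, 0 of the 41 were called and 0 had an unadjusted p under 0.05, beside 0% of all genes called. For bPTH(7-34) at 1000 nM, 0 were called and 1 had an unadjusted p under 0.05 (Wnt10a), again beside 0% of all genes. For hPTH(7-34) at 100 nM, 0 were called and 2 had an unadjusted p under 0.05 (Fzd1 and Sostdc1), beside 0.0721% of all genes called (0.0586% higher and 0.0135% lower). A p above the threshold does not show that a truncated analog left a gene as it was, so intervals are given. For Fzd5 the 95% interval ran from -0.09 to 0.24 with bPTH(3-34), from -0.18 to 0.15 with bPTH(7-34) and from -0.22 to 0.11 with hPTH(7-34). Over the 12 genes called with an intact analog, the intervals stayed within -0.49 and 0.73 for bPTH(3-34), -0.49 and 0.65 for bPTH(7-34), and -0.45 and 0.66 for hPTH(7-34).

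A moderated F test over all 7 groups called 12 of the 41 genes, beside 12.2% of all genes. These were Wnt4, Wnt11, Fzd1, Fzd2, Fzd5, Fzd6, Fzd8, Lrp5, Lrp6, Sfrp4, Dkk2 and Sostdc1. Wif1 missed the threshold in that test (adjusted p = 0.0527).

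Analogs used at the same dose were compared directly in 6 pairs, to ask whether the end of the peptide matters for the Wnt genes. The p-values were adjusted over all genes within each pair. The 3 pairs of intact analogs differ at the carboxyl end, and no Wnt gene was called in any of them. The label of PTH(1-36) names no species, so in its pairs a species difference cannot be told apart from the carboxyl end. Between hPTH(1-31) and hPTH(1-34), 0 of 41 were called by limma and 4 had an unadjusted p under 0.05, beside 0% of all genes called. Between PTH(1-36) and hPTH(1-34) these counts were 0 and 5, and between PTH(1-36) and hPTH(1-31) 0 and 4, each beside 0.00451% of all genes. For Fzd5 the difference of hPTH(1-31) from hPTH(1-34) was -0.08 (95% interval -0.25 to 0.08). PTH(1-36) lay 0.22 above hPTH(1-34) in Fzd5 (0.05 to 0.39, adjusted p = 0.731) and 0.30 above hPTH(1-31) (0.14 to 0.47, adjusted p = 0.686). For Fzd6 hPTH(1-31) lay 0.22 above hPTH(1-34) (0.02 to 0.42, adjusted p = 0.999). Over the 12 called genes the intervals of hPTH(1-31) against hPTH(1-34) stayed within -0.58 and 0.54, and those of PTH(1-36) against hPTH(1-34) within -0.56 and 0.47.

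Peptides without the first residues gave a different result. In 1 of these pairs bPTH(3-34) is bovine and hPTH(1-34) human, so species and missing residues cannot be told apart there. Both peptides of the other pair, hPTH(7-34) and hPTH(1-34), are human. bPTH(3-34) differed from hPTH(1-34) in 10 of 41 genes (4 higher and 6 lower), beside 9.32% of all genes (5.38% higher and 3.94% lower). hPTH(7-34) differed in 10 of 41 (4 higher and 6 lower), beside 10.9% of all genes (6.66% higher and 4.2% lower). These pairs share the hPTH(1-34) arrays with each other and with the comparison with vehicle. Fzd5 lay 1.84 higher with bPTH(3-34) than with hPTH(1-34) (SE 0.08, adjusted p = 2.45e-11) and 1.71 higher with hPTH(7-34) (adjusted p = 7.71e-11). Fzd8 was 1.15 and 1.07 higher (adjusted p = 5.08e-08 and 1.25e-07) and Fzd2 0.64 and 0.50 higher (0.000418 and 0.00424). Lower in both pairs were Fzd6, with differences of -1.02 and -0.95 (5.48e-07 and 1.24e-06), Fzd1, with -0.37 and -0.55 (0.00335 and 6.11e-05), and Wnt11, with -0.67 and -0.61 (0.00427 and 0.00766). Dkk2 and Wif1 were also lower in both pairs (adjusted p 0.0276 to 0.0474), and each of these 4 calls was lost in a model of the pair alone. They were also lost without hPTH(1-34) replicate 1 (adjusted p 0.0921 to 0.21). Other arrays whose removal ended a call (0.0523 to 0.209) were, for Dkk2, hPTH(1-34) replicate 3, every bPTH(3-34) array and hPTH(7-34) replicates 1 and 2. For Wif1 they were hPTH(1-34) replicate 2 and replicates 1 and 2 of either truncated analog. Lrp5 was called with bPTH(3-34) (0.38, adjusted p = 0.00455), with hPTH(7-34) at 0.25 (0.0551). Sfrp4 was called with bPTH(3-34) (-0.82, adjusted p = 0.0198), with hPTH(7-34) at -0.63 (0.0703), and the first was lost without hPTH(1-34) replicate 1 (0.101) or 2 (0.0501) or bPTH(3-34) replicate 2 (0.0698) or 3 (0.0643). Lrp6 was called with hPTH(7-34) (-0.27, adjusted p = 0.043), with bPTH(3-34) at -0.14 (0.35), and the first was lost without any 1 of 5 of its 6 arrays (0.066 to 0.205; kept without hPTH(7-34) replicate 3). The truncated pair, hPTH(7-34) against bPTH(3-34), which also differs in species, had 0 of 41 genes called. In it 4 had an unadjusted p under 0.05, beside 0.0496% of all genes called.

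Sostdc1 (17275042), an inhibitor that binds Lrp5 and Lrp6 and also bone morphogenetic proteins, was called between hPTH(7-34) and hPTH(1-34) but not between either of them and vehicle. It read 4.41, 4.72 and 4.55 with vehicle, 4.30, 4.00 and 4.40 with hPTH(1-34), 4.14, 4.38 and 4.33 with hPTH(1-31), and 4.40, 4.09 and 4.36 with PTH(1-36). It read 4.32, 4.65 and 4.78 with bPTH(3-34), 4.87, 4.72 and 4.69 with bPTH(7-34), and 4.85, 4.99 and 4.94 with hPTH(7-34). The 3 arrays of hPTH(7-34) were above all vehicle arrays, and all arrays of hPTH(1-34) were below them. The difference from vehicle was -0.33 with hPTH(1-34) (adjusted p = 0.158) and 0.37 with hPTH(7-34) (adjusted p = 0.49). hPTH(7-34) lay 1.62-fold above hPTH(1-34) (difference 0.69, SE 0.13, adjusted p = 0.00153), and this call was present in every alternative run (adjusted p up to 0.0208).

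**Figure D4:**
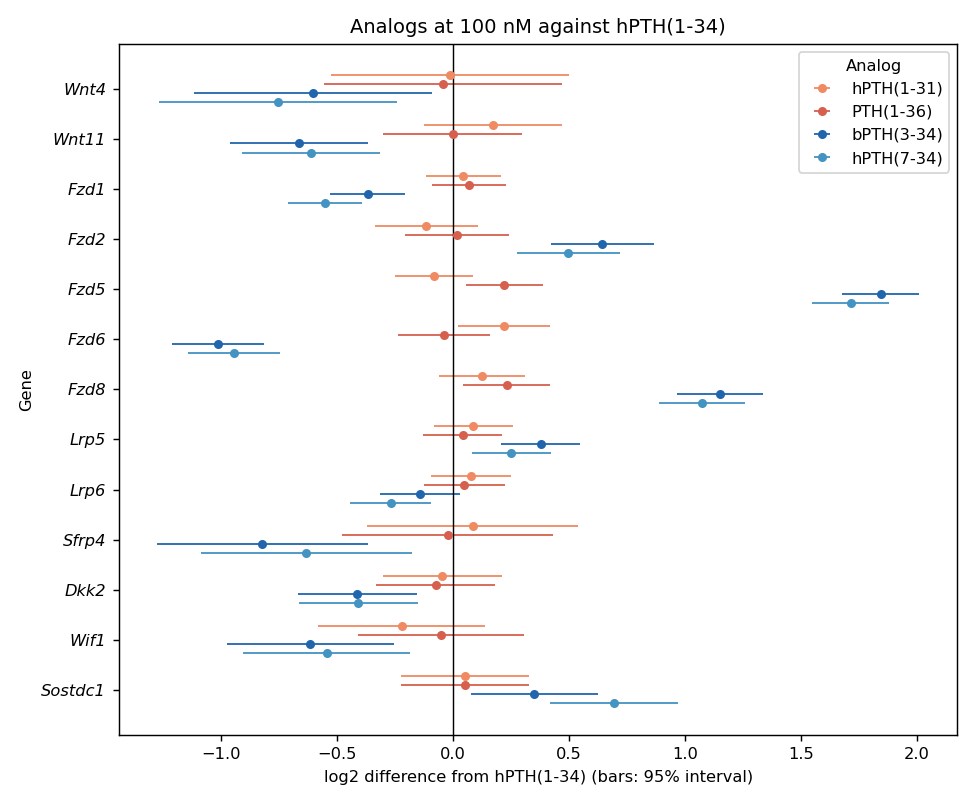
Log2 difference of each 100 nM analog from hPTH(1-34), with 95% intervals, for the 12 genes called against vehicle and Sostdc1. The points of hPTH(1-31) and PTH(1-36) lie near 0, between -0.22 and 0.23, while Fzd5 lies at 1.84 and 1.71 with bPTH(3-34) and hPTH(7-34).

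The rest of the pathway was read from 4 lists, chosen with earlier results of these data known. Their shares beside those of all genes are therefore a description and no test of the pathway. Of 21 measured genes of Wnt secretion, the cell surface and alternative receptors (22 listed), 3 rose and 2 fell with hPTH(1-34), 2 rose and 1 fell with hPTH(1-31), and 2 rose and 2 fell with PTH(1-36). These were 23.8%, 14.3% and 19% of the list, beside 8.64%, 8.7% and 7.23% of all genes. The median difference of this list was 0.03, -0.03 and -0.01, beside -0.01, -0.02 and -0.02 over all genes. Ror1, a Wnt5a receptor, rose by 1.19, 1.31 and 1.21 (adjusted p = 1.33e-06, 3.73e-07 and 1.32e-06). Its relative Ror2 fell, with differences of -0.52, -0.49 and -0.46 (adjusted p = 0.00266, 0.00383 and 0.00796). Tpbg, a surface protein that binds Lrp6, rose by 0.41, 0.51 and 0.51 (adjusted p up to 0.00326). The call of Ror2 with PTH(1-36) was lost without Vehicle replicate 2 (0.0548) or PTH(1-36) replicate 3 (0.0529). Tmem67, a protein of the cilium, was called with hPTH(1-34) (-0.39) and PTH(1-36) (-0.40), and at -0.29 with hPTH(1-31) it was not (adjusted p = 0.074). It also lay below vehicle with bPTH(3-34), bPTH(7-34) and hPTH(7-34), at -0.18, -0.23 and -0.17, without a call (adjusted p = 0.861, 0.924 and 0.674). Its calls were lost without hPTH(1-34) replicate 2 (0.0738) and PTH(1-36) replicate 3 (0.0645), and with the mean of its clusters the value with hPTH(1-34) was -0.18 (adjusted p = 0.398). Kremen1, a Dkk receptor named here after its values were seen, was called with hPTH(1-34) alone (0.27, adjusted p = 0.0298), and the call was lost without any 1 of 5 of its 6 arrays (0.0608 to 0.117; kept without Vehicle replicate 2). Wls and Porcn, which every Wnt ligand needs for secretion, were not called, at -0.23 and -0.19 with hPTH(1-34) (adjusted p = 0.0894 and 0.413). Nor were the extracellular inhibitors Notum (0.32, adjusted p = 0.554) and Sost (0.24, adjusted p = 0.525). Both lay below the median gene (4.42), at which a change is hard to measure. With vehicle Notum read 3.54 ± 0.40 and Sost 3.51 ± 0.19 (SD, n = 3).

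The 9 genes of the R-spondin module (Rspo1 to Rspo4, Lgr4 to Lgr6, Znrf3 and Rnf43) control the amount of Frizzled at the cell surface. With each intact analog 1 rose and 3 fell, 44.4% of the list beside 8.64%, 8.7% and 7.23% of all genes. The median difference was -0.08, -0.17 and -0.06, beside -0.01, -0.02 and -0.02 over all genes. The ligands Rspo2 (-1.55, -1.47 and -1.20) and Rspo3 (-1.67, -1.83 and -1.51) and the receptor Lgr5 (-2.08, -1.83 and -1.67) fell, and the receptor Lgr4 rose (0.84, 0.92 and 1.03). The highest adjusted p among these 4 genes was 2.86e-06, of Lgr4 with hPTH(1-34).

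Inside the cell, 6 of 36 measured genes of signal transduction (39 listed) rose and 1 fell with hPTH(1-34), 5 rose and 2 fell with hPTH(1-31), and 5 rose and 1 fell with PTH(1-36). These were 19.4%, 19.4% and 16.7% of the list, beside 8.64%, 8.7% and 7.23% of all genes called (3.9%, 4.38% and 3.68% higher). Their median difference was -0.10, -0.04 and -0.05, beside -0.01, -0.02 and -0.02 over all genes. Daam2, a partner of Dishevelled proteins, rose by 1.80, 2.05 and 1.85 (SE 0.15, adjusted p = 1.28e-07, 2.01e-08 and 1.07e-07). Csnk1a1, a kinase of the complex that marks β-catenin for breakdown, rose by 0.63, 0.61 and 0.62 (adjusted p up to 1.73e-05). Tle3, a co-repressor of TCF factors, rose by 0.46, 0.49 and 0.50 (adjusted p up to 0.00371). Lef1, a DNA-binding partner of β-catenin and itself a target, rose by 0.73, 1.21 and 0.91 (SE 0.18, adjusted p = 0.014, 0.00015 and 0.00287). The call of Lef1 with hPTH(1-34) was lost without Vehicle replicate 2 (0.0918). Ctnnbip1, an inhibitor of β-catenin, fell with hPTH(1-34) (-0.45, adjusted p = 0.00372) and was not called with hPTH(1-31) (-0.28, adjusted p = 0.0778) or PTH(1-36) (-0.15, adjusted p = 0.421). β-catenin itself (Ctnnb1) was not called, at -0.12, -0.11 and -0.12 (adjusted p = 0.352, 0.416 and 0.361).

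Of 24 measured target genes of Wnt and β-catenin (27 listed), 2 rose and 9 fell with hPTH(1-34), and 2 rose and 7 fell with each of the other intact analogs. These were 45.8%, 37.5% and 37.5% of the list, beside 8.64%, 8.7% and 7.23% of all genes called (4.74%, 4.32% and 3.54% lower). The median difference was -0.13, -0.12 and -0.08, beside -0.01, -0.02 and -0.02 over all genes. Axin2, a widely used readout of β-catenin signalling, was not called, with differences of 0.14, 0.0067 and -0.0033 (adjusted p = 0.681, 0.993 and 0.994). Nkd1, a target that restrains the pathway, had group means of 6.81 ± 0.08 with vehicle, 5.77 ± 0.09 with hPTH(1-34), 5.67 ± 0.12 with hPTH(1-31) and 6.16 ± 0.24 with PTH(1-36) (SD, n = 3). The differences of Nkd1 were -1.03, -1.14 and -0.65 (adjusted p = 2.66e-06, 7.46e-07 and 0.000636). Tnfrsf11b, which encodes the osteoclast inhibitor osteoprotegerin, fell, with differences of -1.36, -1.47 and -1.38 (adjusted p up to 6.29e-06). Ppard, a nuclear receptor, rose by 0.93, 1.07 and 0.85 (adjusted p up to 1.88e-06). Lgr5 and Lef1 also stand in other lists, and many of these genes answer to other signals as well. With the truncated analogs 0 genes of the 4 lists were called.

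**Figure D5:**
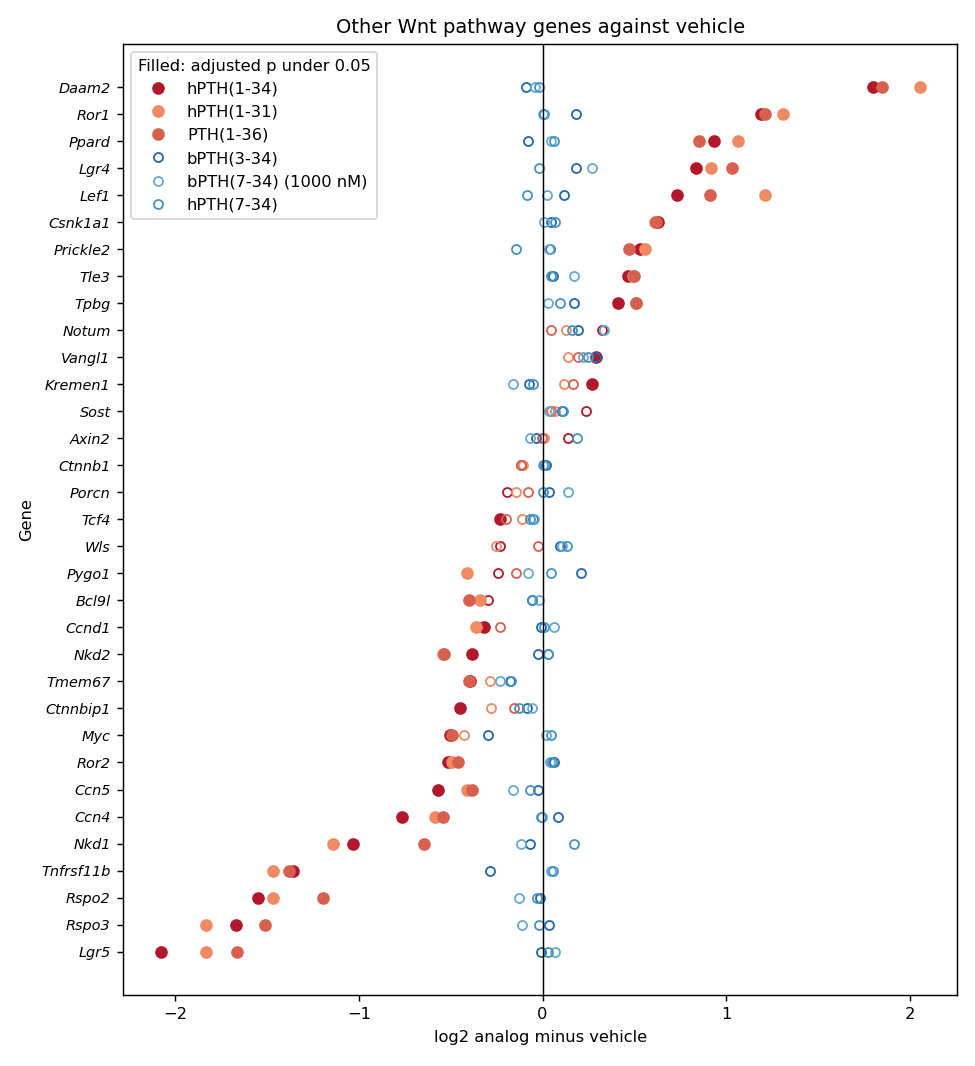
Log2 difference from vehicle of the other pathway genes called with an intact analog, with Axin2, Ctnnb1, Notum, Sost, Wls and Porcn, for the 6 analogs (filled: adjusted p under 0.05). Lgr5, at -2.08 with hPTH(1-34), lies lowest and Daam2, at 2.05 with hPTH(1-31), highest, and all points of the truncated analogs are open.

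Markers of cell types in the cultures moved with the intact analogs in part. Of 10 measured osteoblast markers, Sp7 (-0.56, -0.64 and -0.71) and Pth1r (-1.10, -1.10 and -1.02) fell with each intact analog, and Alpl rose with hPTH(1-34) (0.56) and hPTH(1-31) (0.57). The summed signal of the 10 lay between 14.46 and 14.53 on the log2 scale on every array. Such sums add unlogged signals, so the brightest genes dominate them. Here these were Col1a1 (13.25), Col1a2 (12.90) and Sparc (12.32, means with vehicle). The osteoblast sum therefore cannot show changes of dimmer markers such as Sp7 and Pth1r. The fall of Sp7 with hPTH(1-34) was lost without Vehicle replicate 1 (adjusted p = 0.0704) or hPTH(1-34) replicate 3 (0.0639). Of 15 macrophage and osteoclast markers, Fcgr1 rose with hPTH(1-34) (0.49) and 0 were called with the other intact analogs. The call of Fcgr1 was lost on removal of Vehicle replicate 1 or 3, and of replicate 1 or 2 given hPTH(1-34) (0.066 to 0.153). The summed signal of the list ran from 13.81 to 13.98 with vehicle, from 13.79 to 13.92 with hPTH(1-34), from 13.85 to 13.88 with hPTH(1-31) and from 13.65 to 13.90 with PTH(1-36). Of 9 muscle markers 1, the smooth muscle gene Cnn1, rose (2.10, 2.08 and 1.88). The list's summed signal ran from 9.47 to 9.70 with vehicle, from 10.73 to 11.16 with the intact analogs and from 9.51 to 9.65 with the truncated analogs. Its median difference was 0.03, -0.05 and 0.03 with the intact analogs, so the higher sum is not a rise of the list as a whole. Of 10 endothelial markers Tek fell (-0.65, -1.02 and -0.83) and Kdr rose with hPTH(1-31) and PTH(1-36) (0.63 and 0.61). In vehicle cultures 7 of the 10 lay below the median gene, among them Pecam1 at 3.66 and Emcn at 1.95, and 3 above it, Cdh5 at 4.83, Kdr at 4.88 and Tek at 5.38. The call of Tek with hPTH(1-34) was lost on removal of Vehicle replicate 1 or 2, and of replicate 2 or 3 given hPTH(1-34) (0.0644 to 0.176), and that with PTH(1-36) without Vehicle replicate 2 (0.0548). The calls of Kdr were lost without Vehicle replicate 1 (0.0551 and 0.0724) and without replicate 1 of hPTH(1-31) (0.0721) or PTH(1-36) (0.101). The list's summed signal ran from 7.40 to 7.51 with vehicle and from 7.25 to 7.44 with the intact analogs. Of 8 fat markers Pparg fell (-0.61, -0.82 and -0.72). In vehicle cultures 5 of the 8 lay below the median gene, among them Adipoq at 2.93, and 3 above it, Lpl at 9.32, Cebpa at 7.16 and Pparg at 6.83. The summed signal of the fat list ran from 9.79 to 9.93 with vehicle and from 9.48 to 9.84 with the intact analogs. That of the cartilage list ran from 10.46 to 10.65 with vehicle and from 10.25 to 10.52 with the intact analogs. Of 10 cartilage markers and 3 erythroid and lymphoid markers 0 were called with an intact analog. With hPTH(1-34) the shares called were 30% of osteoblast, 6.67% of macrophage, 11.1% of muscle, 10% of endothelial and 12.5% of fat markers. Of all genes 8.64% were called. In the same order they were 30%, 0%, 11.1%, 20% and 12.5% with hPTH(1-31), beside 8.7% of all genes. With PTH(1-36) they were 20%, 0%, 11.1%, 20% and 12.5%, beside 7.23%. The part of these markers in the changes of the Wnt genes was not tested.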

How the data were processed

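Total RNA of 21 osteoblast cultures (7 groups of 3) was hybridised to Affymetrix arrays of the Mouse Gene 2.0 ST type. The authors deposited normalized signals, taken here to be log2 values. RMA and Expression Console are the tools named in the submitters' processing notes. The notes give no version, settings or base of the logarithm, so every fold rests on that reading, which was taken from the method and from the values (0.25 to 13.6). RMA by its usual steps corrects background, normalizes by quantiles and summarises probes, which compresses differences of dim genes. Of 41345 transcript clusters, the platform annotation gave 1 gene symbol to 23521, several to 1814, and 16010 were unnamed. For each of the 22180 genes the cluster with the highest mean stood for it. Symbols of 23328 gene identifiers were compared with RefSeq (GRCm38.p6) and 0 differed.

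A single linear model with a mean for each of the 7 groups was fitted to all 21 arrays (limma 3.58.1 under R 4.3.3), with 6 contrasts with vehicle, 6 between analogs at 100 nM, and a moderated F test. Tests were two-sided, and Benjamini-Hochberg adjustment ran over the 22180 genes within each contrast. bPTH(7-34), at another dose, was compared with vehicle only. The members, the 4 pathway lists and the marker lists were chosen with earlier results of these data known. All 41 members are named, with array values for those called against vehicle and for Sostdc1, which was added after its values were seen. Of each other list up to 4 genes with the smallest adjusted p for hPTH(1-34) are named, along with Axin2, Lef1, Nkd1, Notum, Sost, Ctnnb1, Wls and Porcn. Tcf7, also on that list, was not analysed here. Marker lists covered osteoblasts, macrophages and osteoclasts, endothelium, fat, cartilage, muscle with smooth muscle, and blood cells (erythroid and lymphoid). Alternatives were a replicate block, a fit of 2 groups, a filter on dim genes, eBayes with trend and robust, the mean of clusters, centring, all clusters, and each array left out. The limma fit was tested on simulated data. Precision is limited by having 3 arrays a group.

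Arrays were not paired by replicate number, because the labels do not say that a number marks 1 preparation across groups. Over 63 pairs of arrays with the same number, the correlation of deviations from group means had a median of 0.03 and passed 0.1 in 1. Over 126 pairs with different numbers the median was -0.01.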

Additional observations from a re-analysis of the deposited data

How the results depend on the processing

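Of the 49 calls of Wnt genes, 26 were present in every alternative run. Over 633 values of called genes under alternatives, 522 kept their call and direction, 111 lost the call and 0 reversed. With a model of only the 2 groups of a contrast, 5 Wnt genes were called with each of hPTH(1-34), hPTH(1-31) and PTH(1-36). With all clusters fitted, 7 were called with hPTH(1-34). The counts of Wnt genes under alternatives are given without the share of all genes called in the same run. Leaving out 1 array gave 6 to 9 with hPTH(1-34), 7 to 10 with hPTH(1-31) and 5 to 8 with PTH(1-36). The counts of 0 for the truncated analogs against vehicle and between the intact analogs stayed at 0 in all alternatives. Centring each array on its median turned the split with PTH(1-36) from 4 higher and 4 lower to 5 higher and 3 lower.

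For the other lists, the model of 2 groups called 2 genes of secretion and the cell surface with hPTH(1-34) and 2 with PTH(1-36). It called 3, 4 and 2 of signal transduction with hPTH(1-34), hPTH(1-31) and PTH(1-36), and 6 and 3 targets with hPTH(1-34) and PTH(1-36). With hPTH(1-31), 5 genes of secretion and the cell surface were called with the replicate block and 5 without dim genes. In leaving out 1 array, chosen for these lists after seeing the data, the range was 3 to 5 and 2 to 4 for secretion and the cell surface with hPTH(1-34) and PTH(1-36), and 7 to 10 targets with hPTH(1-34). The lowest of these came without hPTH(1-34) replicate 2 (3 and 7 genes) and without PTH(1-36) replicate 3 (2 genes). The cause of these shifts was not tested, though a model of 2 groups or fewer arrays has fewer samples.

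With the replicate number as a block, 11, 9 and 8 Wnt genes were called with the intact analogs. Wnt4 was lost with hPTH(1-34) and hPTH(1-31) (adjusted p = 0.0528 and 0.057), as was Wif1 in hPTH(7-34) against hPTH(1-34) (0.0515). Of 21 arrays, 14 were closest on average to their own number, a hint from the data and not from the labels. A preparation shared by arrays of the same number is therefore possible. With 3 arrays a group, changes smaller than the intervals given could not be seen.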
